A study of Mus musculus with 10 samples.

Results

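The 40 genes described here mark microglia and other macrophages. They were taken by symbol from a list that was set with earlier results of these data known. All 40 were found among the 43629 gene identifiers counted in each sample. The list has 9 genes of homeostatic microglia, 13 of the phagocytic and complement machinery, 15 expressed across myeloid cells (pan-myeloid) and 3 that are high in macrophages of the brain borders. The RNA came from mouse embryos (strain C57BL/6) at E14.5 and from their dorsal telencephalon, where the cerebral cortex forms. The 5 control samples carried no Cre and were Dot1l-cKO f/+, and the 5 Dot1l-cKO samples carried 1 Cre allele and were Dot1l-cKO f/f. Both groups therefore carried a floxed allele of Dot1l, which encodes a histone H3 lysine methyltransferase. The Cre was expressed in the telencephalon and was present only in the Dot1l-cKO samples, so the Cre allele and the loss of Dot1l cannot be told apart.

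Microglia are the resident macrophages of the brain. They descend from progenitors of the yolk sac, enter the neural tube early in embryogenesis and take up dying cells, while the neurons and glia of the cortex descend from the neuroepithelium. Border macrophages of the meninges and vessels share this origin and much of the same gene programme, and the cells in either place depend on the receptor Csf1r and on the transcription factor PU.1, encoded by Spi1.

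Total counts lay between 54202349 and 66556034 per sample. The deposited normalised tables name each sample with a leading number that no label explains and that is termed the header number below. This number was 57 for replicates 2 and 3 of both groups, and these 4 samples held at most 0.492% of their counts in mitochondrial rRNA against at least 5.79% in the other 6. The summed level of 10 dorsal telencephalon markers was 2102 to 2266 CPM (counts scaled by the TMM library size to a common total of 1000000) in controls and 2073 to 2479 CPM in the Dot1l-cKO samples. Markers of meningeal fibroblasts summed to between 33.2 and 912 CPM, with the highest sums in control replicate 3 and Dot1l-cKO replicate 5. The number of genes called, the median log2 fold change, Lyz2 and Pf4 are given with and without these 2 samples. The class sums and their ratios are given with them only. Dot1l had 37.3 ± 4.04 CPM in the controls and 39.4 ± 11.7 CPM in the Dot1l-cKO samples (SD, n = 5 each). The count of the gene includes exons that are not deleted, so it does not check the genotype.

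The comparison asked whether the transcripts of these immune cells changed in the Dot1l-cKO tissue. Of the 40 genes, 19 increased in the edgeR quasi-likelihood test at an adjusted p under 0.05 and 0 decreased, and 0 decreased by DESeq2 or limma as well. Among all 17039 genes tested, 5.67% increased and 1.44% decreased. The log2 fold change was above 0 for 39 of the 40 genes, with a median of 0.81, while the median over all genes tested was -0.0056. At an unadjusted p under 0.05, 29 genes were higher in Dot1l-cKO samples and none was lower, against 13.3% and 7.3% of all genes tested. Every Dot1l-cKO sample was above every control sample for 15 of the 40 genes, against 6.17% of all genes tested. Since the genes were chosen with earlier results of these data known, the excess over all genes tested is a description and no independent support. In bulk tissue, more cells of a type and more RNA per cell cannot be told apart.

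**Figure D1:**
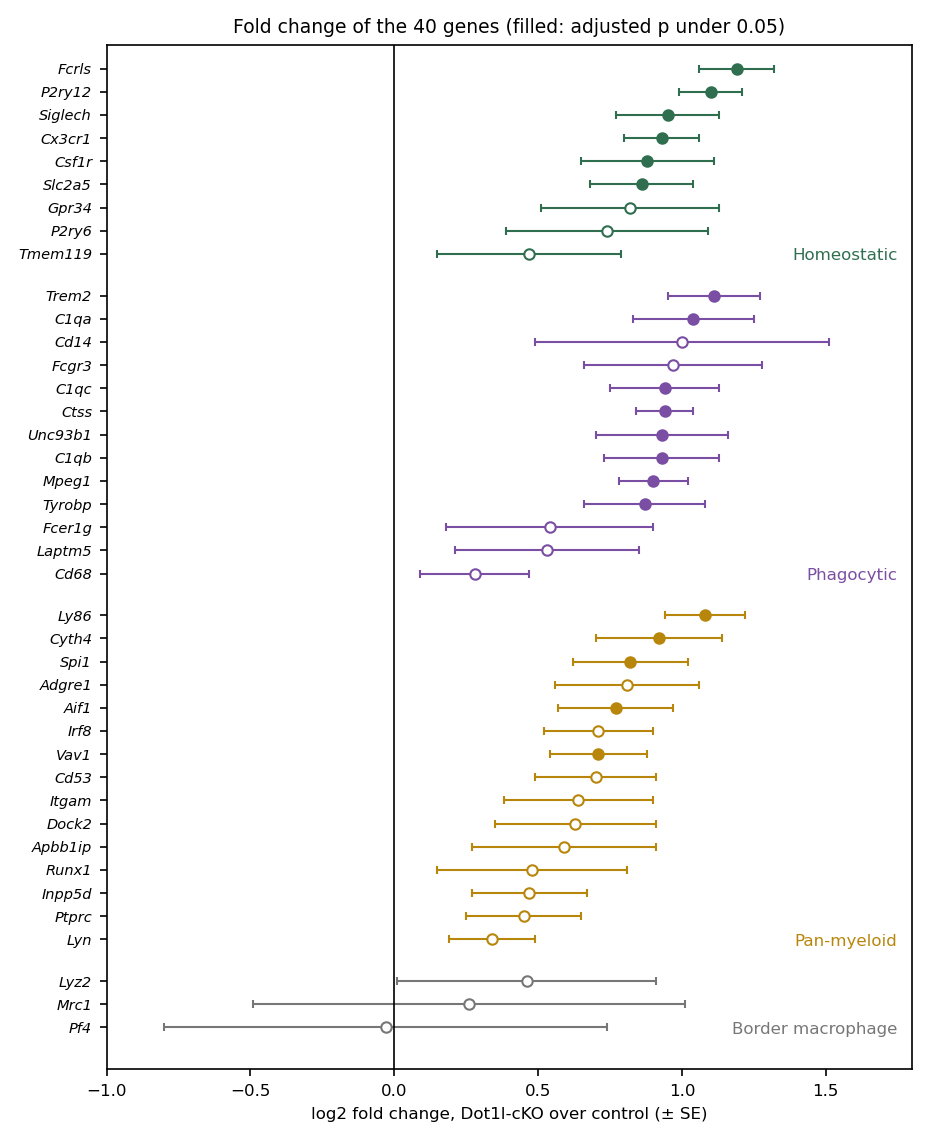
Log2 fold change of each of the 40 genes, Dot1l-cKO over control, with its standard error (horizontal bars), sorted within the homeostatic, phagocytic, pan-myeloid and border classes. Filled points have an adjusted p under 0.05 in edgeR. All points but that of Pf4, at -0.03, lie right of 0, and the 3 border genes have open points at -0.03, 0.26 and 0.46.

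The homeostatic genes are high in resident microglia, and some, such as Csf1r and Cx3cr1, are shared with other macrophages. Of the 9 genes, 6 increased (P2ry12, Fcrls, Cx3cr1, Siglech, Slc2a5 and Csf1r), and the median log2 fold change of the class was 0.88. Their summed level was 38.2, 33.1, 53.9, 34.2 and 45.2 CPM in control replicates 1 to 5 and 79.2, 69.5, 72.5, 79.3 and 93.9 CPM in Dot1l-cKO replicates 1 to 5. The groups did not overlap, and the means were 40.9 ± 8.65 and 78.9 ± 9.41 CPM (SD, n = 5 each), a ratio of 1.93.

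P2ry12, the purinergic receptor that steers microglial processes towards ATP, lies on chromosome 3 from 59216272 to 59262871 (GRCm38, as are all coordinates here). It had 3.64, 3.16, 2.95, 2.9 and 3.32 CPM in the controls and 7.02, 7.25, 7.06, 6.61 and 6.25 CPM in the Dot1l-cKO samples. Both groups were tight and lay apart, with a log2 fold change of 1.10 (SE 0.11, edgeR adjusted p = 0.000231). Fcrls, an Fc receptor-like gene on chromosome 3 from 87250758 to 87263738, is a marker of microglia. Its levels were 6.61, 5.19, 8.20, 7.02 and 8.07 CPM in the controls and 16.51, 15.40, 14.55, 17.25 and 16.58 CPM in the Dot1l-cKO samples. The lowest Dot1l-cKO sample was well above the highest control, and the log2 fold change of 1.19 (SE 0.13, adjusted p = 0.00036) was the highest of the 40 genes.

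Cx3cr1, the receptor by which microglia sense the neuronal chemokine fractalkine, lies on chromosome 9 from 119901616 to 120069879. Controls had 8.93, 8.63, 13.1, 9.26 and 11.3 CPM, and Dot1l-cKO samples had 19, 19.1, 16.7, 20.4 and 22.1 CPM. Control replicate 3 was the highest control but stayed below every Dot1l-cKO sample, and the log2 fold change was 0.93 (SE 0.13, adjusted p = 0.00165). Siglech, a sialic acid-binding lectin on chromosome 7 from 55768178 to 55778925, was a low gene, with 51 to 126 counts per sample. It had 1.09, 0.895, 0.838, 0.825 and 1.11 CPM in the controls and 1.28, 2.01, 2.21, 1.7 and 1.97 CPM in the Dot1l-cKO samples. Dot1l-cKO replicate 1 lay close to the controls, and the log2 fold change was 0.95 (SE 0.18, adjusted p = 0.00893).

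Csf1r encodes the receptor for CSF1 and IL-34 that microglia need to survive. It had 12.5, 10.8, 20.9, 9.69 and 15.1 CPM in the controls and 25.2, 17.4, 23.2, 25 and 35.8 CPM in the Dot1l-cKO samples. The groups overlapped, since control replicate 3 was above Dot1l-cKO replicate 2. The log2 fold change of 0.88 was close to that of the class but its SE of 0.23 was wider, and the call (adjusted p = 0.0414) held in 2 of the 10 leave-one-out fits. Slc2a5, the fructose transporter, increased by a log2 fold change of 0.86 (adjusted p = 0.0135), from 1.44 ± 0.148 to 2.61 ± 0.595 CPM.

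The other 3 homeostatic genes did not pass the test. Tmem119, a membrane protein of microglia that is also made by osteoblasts, had 2.01 ± 0.971 CPM in the controls and 2.79 ± 1.06 CPM in the Dot1l-cKO samples, with an adjusted p of 0.467. Gpr34, a lysophosphatidylserine receptor, had a log2 fold change of 0.82 (SE 0.31, adjusted p = 0.159). P2ry6, the UDP receptor that triggers phagocytosis, had a log2 fold change of 0.74 (SE 0.35, adjusted p = 0.265). Set per kilobase of exon, Fcrls, Csf1r and Cx3cr1 had the highest levels of the class over all 10 samples, at 4.94, 3.39 and 3.29 CPM per kb, and P2ry6 had the lowest at 0.391 CPM per kb.

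**Figure D2:**
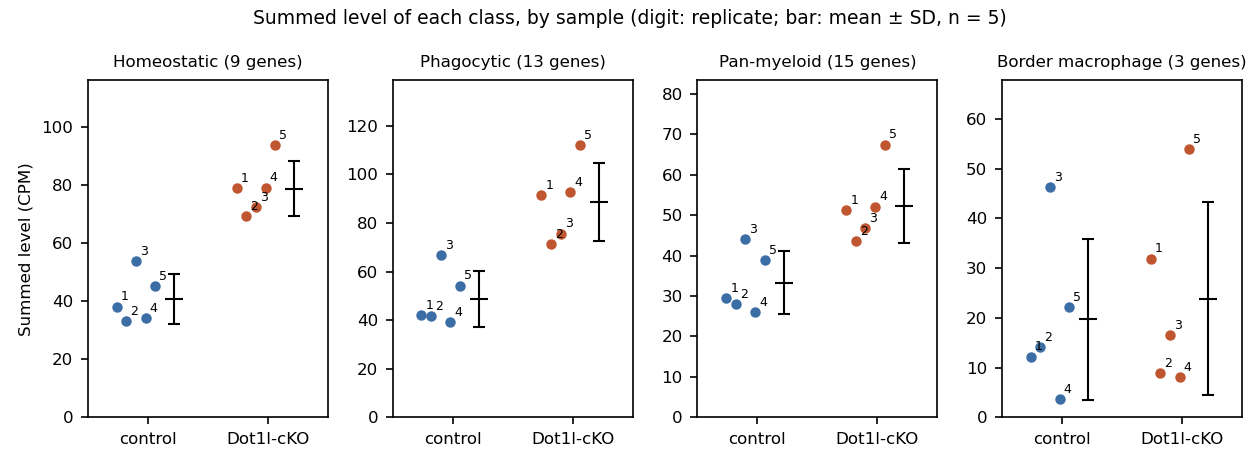
Summed level in CPM of the genes of each class in each sample (points, the digit giving the replicate number), with the mean ± SD of the 5 samples of a group (black bars). The homeostatic and phagocytic sums of the groups do not overlap, the pan-myeloid sums meet at control replicate 3 (44.1 CPM) and Dot1l-cKO replicate 2 (43.5 CPM), and the border sums overlap over most of their range.

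The phagocytic class holds the subunits of complement C1q, which tags debris and synapses, the receptors that recognise tagged material and the lysosomal proteins that digest it. Of the 13 genes, 8 increased (Ctss, Mpeg1, Trem2, C1qc, C1qa, C1qb, Tyrobp and Unc93b1), with a class median log2 fold change of 0.93. The summed level was 42.1, 41.8, 66.7, 39.2 and 54.2 CPM in the controls and 91.5, 71.4, 75.7, 92.7 and 112 CPM in the Dot1l-cKO samples. Control replicate 3 came closest to the Dot1l-cKO range without reaching it, and the ratio of the means was 1.82.

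The 3 C1q chains are encoded side by side on chromosome 4, C1qb from 136880129 to 136886187, C1qc from 136889804 to 136893065 and C1qa from 136895917 to 136898803. They also had high levels per length, C1qa with 8.44 and C1qb with 8 CPM per kb over all samples, which were the 2 highest values of the 40 genes. C1qa had 4.3, 5.07, 8.2, 4.47 and 6.7 CPM in the controls and 11.8, 9.68, 9.68, 12 and 15.9 CPM in the Dot1l-cKO samples. The groups did not overlap, and the log2 fold change was 1.04 (SE 0.21, adjusted p = 0.0113). C1qb had 5.39, 4.98, 7.63, 4.45 and 7.44 CPM in the controls and 11.6, 8.76, 8.88, 12.5 and 15.4 CPM in the Dot1l-cKO samples, again without overlap (log2 fold change 0.93, SE 0.20, adjusted p = 0.0177). C1qc had 5.65, 5.56, 9.84, 5.11 and 7.36 CPM in the controls and 14.2, 12, 10.1, 13.8 and 14.3 CPM in the Dot1l-cKO samples. Here control replicate 3 almost met Dot1l-cKO replicate 3, and the log2 fold change was 0.94 (SE 0.19, adjusted p = 0.0108).

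Trem2, the lipid and lipoprotein receptor of microglia on chromosome 17 from 48346401 to 48354147, signals through the adaptor Tyrobp. Trem2 had 1.37, 1.05, 1.45, 1.26 and 1.63 CPM in the controls and 2.81, 2.48, 2.71, 3.71 and 2.87 CPM in the Dot1l-cKO samples. All Dot1l-cKO samples were higher, and the log2 fold change was 1.11 (SE 0.16, adjusted p = 0.00215). Tyrobp itself increased from 2.81 ± 0.868 to 5.14 ± 0.836 CPM, with a log2 fold change of 0.87 (adjusted p = 0.0274). Fcer1g, the adaptor of Fc receptors that has a similar role, had 1.43 ± 0.721 and 2.08 ± 0.839 CPM and did not pass (adjusted p = 0.45).

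Ctss, the lysosomal cysteine protease cathepsin S, lies on chromosome 3 from 95526786 to 95556403. It had 4.95, 4.84, 5.84, 4.7 and 5.39 CPM in the controls and 9.92, 10.6, 9.05, 10.2 and 9.76 CPM in the Dot1l-cKO samples. The spread within each group was small beside the gap between them, with a log2 fold change of 0.94 (SE 0.10, adjusted p = 0.000345). Mpeg1, which encodes the pore-forming protein perforin-2 of phagosomes, lies on chromosome 19 from 12460779 to 12465283. Its levels were 4.16, 4.95, 5.3, 5.39 and 4.92 CPM in the controls and 8.36, 7.91, 10.2, 9.94 and 9.83 CPM in the Dot1l-cKO samples. No sample stood out in either group, and the log2 fold change was 0.90 (SE 0.12, adjusted p = 0.00107).

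Unc93b1, which carries nucleic acid-sensing Toll-like receptors to the endosome, increased by a log2 fold change of 0.93 (adjusted p = 0.0304), with 1 overlapping value between the groups. The 5 phagocytic genes that did not pass the test were Fcer1g, Cd68, Fcgr3, Cd14 and Laptm5, with log2 fold changes from 0.28 (Cd68, SE 0.19) to 1.00 (Cd14, SE 0.51). Fcgr3, a low-affinity receptor for IgG, had an adjusted p of 0.0864, and 0.0481 with the replicate number as a block. Cd14, the coreceptor for bacterial lipopolysaccharide, was the lowest gene of the class in counts, with 3 to 33 per sample, so counting error alone is wide. Cd68, the lysosomal glycoprotein often used to stain phagocytes, had 2.65 ± 0.567 and 3.22 ± 0.714 CPM.

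**Figure D3:**
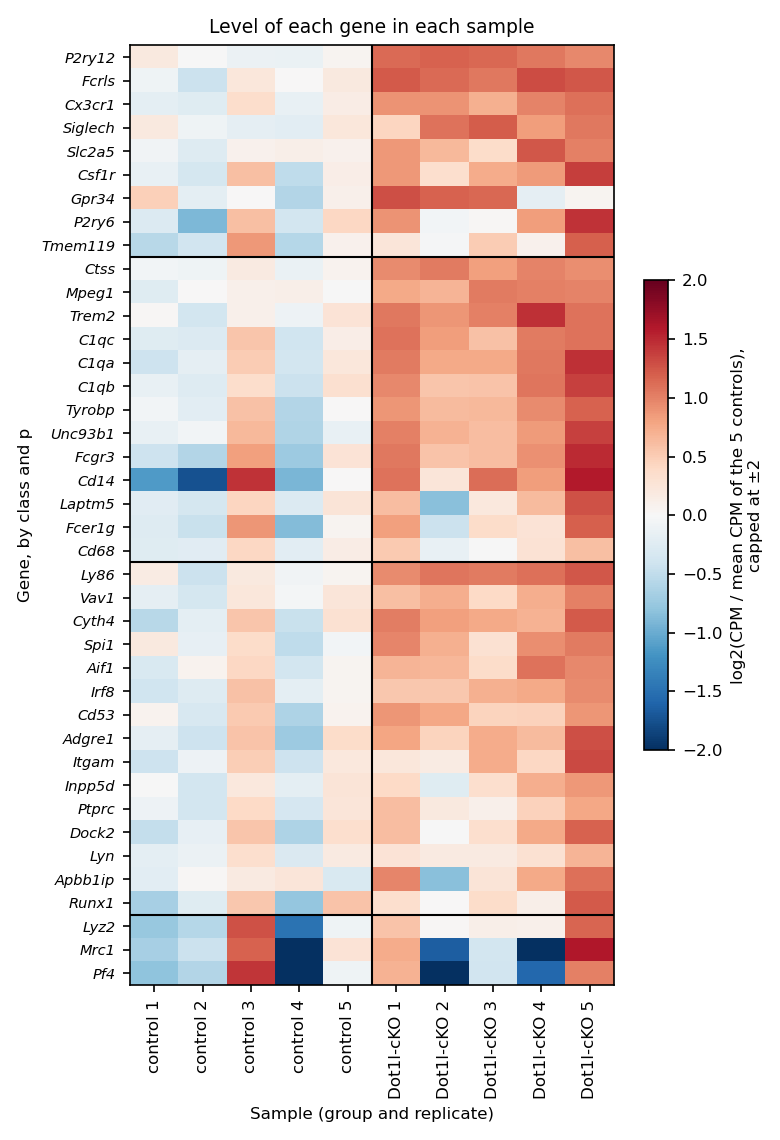
Level of each of the 40 genes (rows, by class and then by p) in each of the 10 samples (columns), as the log2 ratio of its CPM to the mean CPM of the 5 controls, with the colour capped at 2 in either direction. The upper rows of the homeostatic and phagocytic blocks are red across all 5 Dot1l-cKO samples, while the 3 border genes at the bottom are highest in control replicate 3 and Dot1l-cKO replicate 5, and Mrc1 and Pf4 are low in control replicate 4 and Dot1l-cKO replicates 2 and 4.

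The pan-myeloid class holds surface, signalling and transcription factor genes that microglia share with other myeloid cells. Of its 15 genes, 5 increased (Ly86, Vav1, Cyth4, Spi1 and Aif1) and 13 were higher at an unadjusted p under 0.05, the threshold that 13.3% of all genes tested passed in this direction. The class had a median log2 fold change of 0.70. The summed level was 29.5, 28, 44.1, 26.1 and 38.8 CPM in the controls and 51.2, 43.5, 46.8, 52.1 and 67.4 CPM in the Dot1l-cKO samples. Control replicate 3 was just above Dot1l-cKO replicate 2, and the ratio of the means was 1.57. Within each sample, the pan-myeloid sum divided by the homeostatic sum was 0.762 to 0.859 in controls and 0.627 to 0.718 in Dot1l-cKO samples, so these ratios did not overlap. The phagocytic sum divided by the homeostatic sum did overlap, with 1.1 to 1.26 in controls and 1.03 to 1.2 in Dot1l-cKO samples. Both ratios were chosen after the values had been seen.

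Ly86, which encodes the partner MD-1 of the receptor RP105, lies on chromosome 13 from 37345208 to 37419036. It had 2.35, 1.56, 2.41, 1.99 and 2.19 CPM in the controls and 4.06, 4.41, 4.31, 4.52 and 4.98 CPM in the Dot1l-cKO samples. The groups lay far apart, with a log2 fold change of 1.08 (SE 0.14, adjusted p = 0.00117). Vav1, a guanine nucleotide exchange factor of blood cells, had 1.35, 1.19, 1.78, 1.49 and 1.81 CPM in the controls and 2.32, 2.53, 2, 2.53 and 3.06 CPM in the Dot1l-cKO samples. The groups were apart by a small margin, and the log2 fold change was 0.71 (SE 0.17, adjusted p = 0.0274). Cyth4, an exchange factor for ARF GTPases, had 1.71, 2.19, 3.71, 1.85 and 3.11 CPM in the controls and 5.09, 4.46, 4.27, 4.06 and 5.9 CPM in the Dot1l-cKO samples. Control replicate 3 approached the lowest Dot1l-cKO sample, and the log2 fold change was 0.92 (SE 0.22, adjusted p = 0.0304).

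Spi1, on chromosome 2 from 91082390 to 91115756, had 1.15, 0.895, 1.29, 0.701 and 0.968 CPM in the controls and 1.98, 1.63, 1.24, 1.9 and 2.06 CPM in the Dot1l-cKO samples. Dot1l-cKO replicate 3 was below control replicate 3, so the groups overlapped at these samples. The log2 fold change was 0.82 (SE 0.20, adjusted p = 0.0332), and with the replicate number as a block the adjusted p was 0.0614. Aif1, which encodes the microglial stain IBA1, increased from 1.06 ± 0.234 to 1.81 ± 0.347 CPM, with a log2 fold change of 0.77 (adjusted p = 0.0382, and 0.073 with the block). Irf8, the partner of PU.1 in microglial development, had a log2 fold change of 0.71 and missed the threshold (adjusted p = 0.0525, and 0.0332 with the block).

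Adgre1, which encodes the macrophage antigen F4/80, had the highest level per length of the class, at 1.94 CPM per kb. It had 4.02, 3.44, 6.75, 2.76 and 5.86 CPM in the controls and 7.92, 6.21, 7.6, 7.1 and 11.1 CPM in the Dot1l-cKO samples. The groups overlapped at control replicate 3 and Dot1l-cKO replicate 2, and the log2 fold change of 0.81 (SE 0.25) had an adjusted p of 0.0805, and of 0.0231 with the block. Lyn, a Src-family kinase that B cells also use, came next at 1.78 CPM per kb. It had 5.57, 5.93, 8.1, 5.23 and 7.23 CPM in the controls and 7.79, 7.25, 7.25, 7.89 and 10.3 CPM in the Dot1l-cKO samples. Control replicates 3 and 5 lay within or near the Dot1l-cKO range, and the log2 fold change of 0.34 (SE 0.15, adjusted p = 0.237) was the lowest of the class.

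The remaining 7 pan-myeloid genes, none of which passed the test, had log2 fold changes from 0.45 (Ptprc, the leukocyte phosphatase CD45) to 0.70 (Cd53, a tetraspanin). Between these values were Inpp5d, which encodes the phosphatase SHIP1, the transcription factor Runx1, the adaptor Apbb1ip, the exchange factor Dock2 and Itgam, which encodes CD11b. The adjusted p of Cd53 was 0.0744. Itgam may be uncertain, because 68.7% of its exon bases overlap another gene annotated in GENCODE M21, Gm49368, on the same strand. Whether Gm49368 was in the annotation used for counting was not checked.

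PU.1 binds purine-rich DNA around a GGAA core, and its known sites lie in the promoters of many myeloid genes. The promoter windows of these genes were therefore read for the letters GAGGAAGT on both strands, to show which members carry such a stretch next to their start. The windows, from RefSeq on GRCm38.p6, reach from 250 bases before to 50 bases after a transcript start, and 29 of the 40 genes had one. The 8 letters occurred in 8 of these 29 genes (27.6%), against 3.69% of the 27025 genes with a window. Shorter strings contained in it were more frequent in both: GAGGAAG occurred in 51.7% against 15.4%, AGGAAGT in 51.7% against 10.7% and GAGGAA in 72.4% against 31.3%. The 4 strings overlap each other, and no test was made. Of the 14 called genes with a window, 4 held the 8 letters, as did 4 of the 15 genes that were not called. A match of letters does not show that the factor binds there. The stretches of all 8 genes follow, written 5′ to 3′ along the strand of the gene, with the 8 letters or their reverse complement ACTTCCTC in capitals.
Vav1 (chr17:57279000-57279099, plus strand): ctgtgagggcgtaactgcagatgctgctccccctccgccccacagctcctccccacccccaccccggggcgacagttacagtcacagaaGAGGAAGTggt
Inpp5d (chr1:87620212-87620311, plus strand): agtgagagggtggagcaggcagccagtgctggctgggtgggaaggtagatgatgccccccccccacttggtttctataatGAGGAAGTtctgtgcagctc
Pf4 (chr5:90772335-90772434, plus strand): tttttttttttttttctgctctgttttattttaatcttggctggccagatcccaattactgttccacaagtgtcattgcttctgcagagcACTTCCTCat
Ctss (chr3:95526775-95526800, plus strand): tgaaagttcACTTCCTCattgtggat
Cyth4 (chr15:78597064-78597089, plus strand): ccagggctgACTTCCTCccacagggt
Apbb1ip (chr2:22774323-22774348, plus strand): gctcaaagcACTTCCTCctccctgag
Cd53 (chr3:106790127-106790152, minus strand): ctcagtctcACTTCCTCactcttctc
C1qc (chr4:136893093-136893118, minus strand): acggcagacACTTCCTCattttggca

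The border class holds Mrc1, the mannose receptor CD206, Pf4, which encodes the chemokine CXCL4, and Lyz2, the lysozyme of myeloid cells. In the fit of all samples, none of the 3 genes passed the test at an adjusted or an unadjusted p under 0.05. The log2 fold changes were 0.26 (Mrc1, SE 0.75), -0.03 (Pf4, SE 0.77) and 0.46 (Lyz2, SE 0.45). Lyz2 had the highest level per length of the 3, at 3.8 CPM per kb, with 2.49, 2.84, 10.2, 1.51 and 3.95 CPM in the controls and 6.26, 4.27, 4.53, 4.52 and 9.42 CPM in the Dot1l-cKO samples. The highest value of either group was in a control, replicate 3. Without that sample, the log2 fold change of Lyz2 was 1.10 (edgeR adjusted p = 0.0589). Without control replicate 3 and Dot1l-cKO replicate 5 it was 0.85 (edgeR adjusted p = 0.0982). It was 1.35 outside header number 57 and -0.55 within it. Pf4 had 1.23, 1.44, 5.81, 0.249 and 2.03 CPM in the controls and 3.49, 0.347, 1.65, 0.724 and 4.33 CPM in the Dot1l-cKO samples. Both groups spanned a wide range and overlapped over nearly all of it. The sum of 5 platelet markers was 1.61, 2.25, 8.74, 1.18 and 3.18 CPM in the controls. In the Dot1l-cKO samples it was 4.17, 1.72, 2.22, 3.32 and 4.37 CPM. It was highest in control replicate 3 and Dot1l-cKO replicate 5, as was Pf4, and the part of platelets in the level of Pf4 was not tested. Mrc1 ranged from 1.95 to 30.3 CPM in the controls and from 2.9 to 40.3 CPM in the Dot1l-cKO samples.

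Border genes and meningeal markers were high in the same samples. The border sum was 12.2, 14.2, 46.3, 3.71 and 22.1 CPM in controls, where the summed level of 9 meningeal fibroblast markers was 177, 227, 912, 33.2 and 343 CPM. In Dot1l-cKO samples the border sum was 31.9, 8.88, 16.5, 8.14 and 54 CPM and the meningeal sum 308, 37.3, 231, 33.7 and 842 CPM. In either group, the sample with the highest border sum was also that with the highest meningeal sum. These samples, control replicate 3 and Dot1l-cKO replicate 5, also had the highest sums of endothelial (289.8 and 332 CPM) and erythroid markers (2555 and 2249 CPM). The border sum divided by the meningeal sum ranged from 0.0508 to 0.112 in the controls and from 0.0642 to 0.242 in the Dot1l-cKO samples. This ratio was chosen after the values had been seen. Dot1l-cKO replicates 2 and 4, with 0.238 and 0.242, were above every control, and the other 3 lay within the range of the controls. The part of the meningeal, vessel or blood content in the level of the border genes was not tested.

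**Figure D4:**
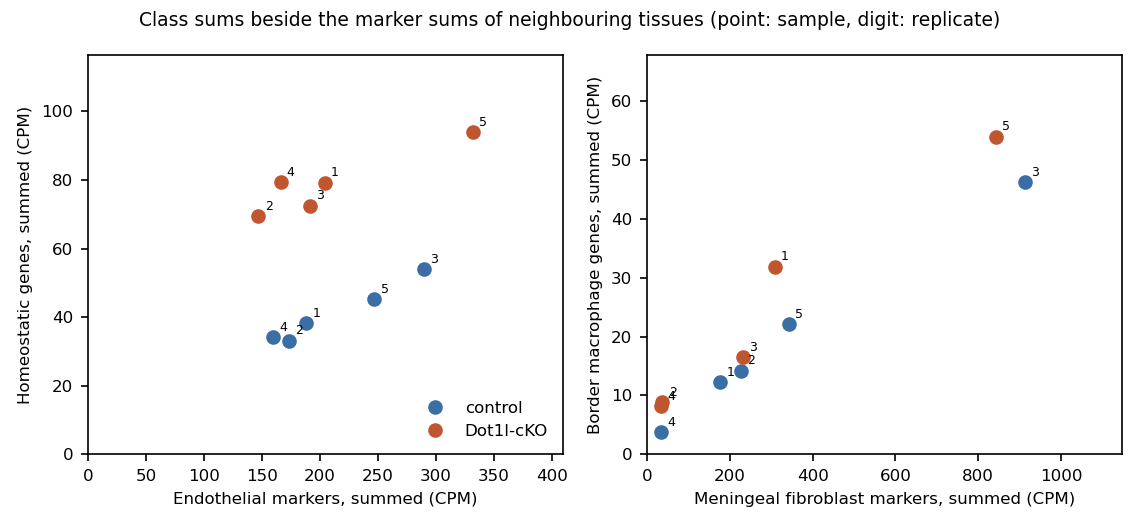
Left, summed CPM of the homeostatic genes against that of 10 endothelial markers, and right, summed CPM of the border genes against that of 9 meningeal fibroblast markers, for each sample (points, the digit giving the replicate number). On the left the Dot1l-cKO samples lie above the controls at every endothelial level, with ratios of 0.283 to 0.477 against 0.183 to 0.214, and on the right the highest point of each group on both axes is control replicate 3 or Dot1l-cKO replicate 5.

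The 2 samples with the highest meningeal sums differed among the members as well. Control replicate 3 was above the median of the other 4 controls for 38 of the 40 genes, and Dot1l-cKO replicate 5 was above that of the other 4 Dot1l-cKO samples for 37. The share of all genes tested above the same medians was not computed. Among the 40 genes, the size of the excess in these 2 samples differed. For P2ry12 the ratios were 0.91 in control replicate 3 and 0.888 in Dot1l-cKO replicate 5, and for Fcrls they were 1.2 and 1.04. For Csf1r they were 1.8 and 1.48, for Tmem119 2.51 and 2.03, and for Mrc1 3.3 and 5.52. The median ratio in control replicate 3 was 1.2 for the homeostatic, 1.64 for the phagocytic, 1.52 for the pan-myeloid and 3.82 for the border class. Without both samples, 23 of the 40 genes increased, against 4.88% of all genes tested, and the median log2 fold change was 0.84. In that fit Vav1 was no longer called, while Fcgr3, Cd14, Irf8, Cd53 and Adgre1 were. This fit was added after the values had been seen.

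**Figure D5:**
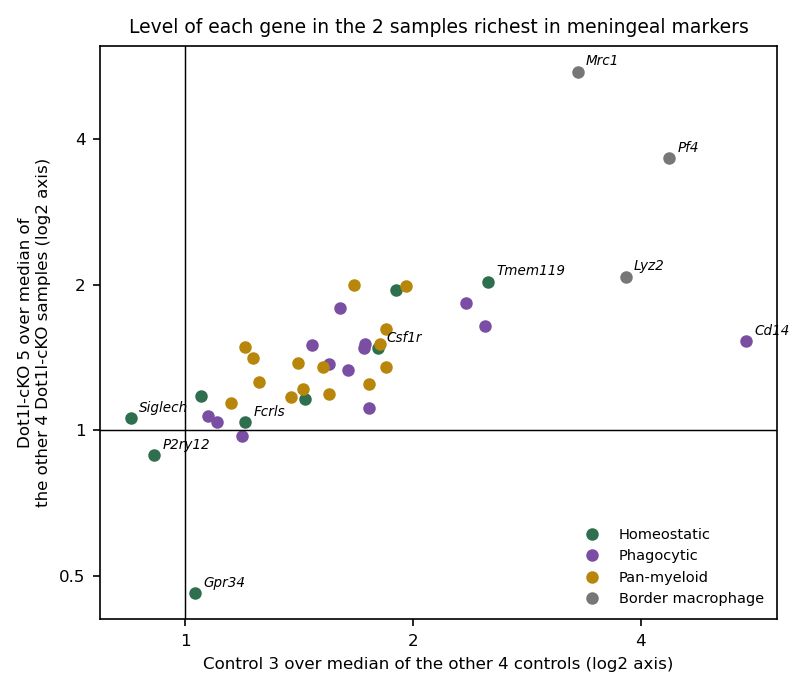
Level of each of the 40 genes in control replicate 3 over the median of the other 4 controls (horizontal, log2 axis) and in Dot1l-cKO replicate 5 over the median of the other 4 Dot1l-cKO samples (vertical, log2 axis), coloured by class. The border genes and Cd14 lie farthest to the right, and P2ry12, Siglech and Fcrls lie close to 1 on both axes.

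Markers of the vessels, through which the embryonic brain is supplied with blood and along which macrophages lie, were set beside these values. Of 10 endothelial and 7 pericyte markers, 0 were called in the edgeR test, and none had an unadjusted p under 0.05. The ratio of the summed levels, Dot1l-cKO over control, was 0.982 for endothelial and 1.02 for pericyte markers. Divided by the endothelial sum of the same sample, the homeostatic sum was 0.196 ± 0.013 in controls and 0.401 ± 0.08 in Dot1l-cKO samples, the phagocytic sum ranged from 0.219 to 0.245 and from 0.339 to 0.558, and the pan-myeloid sum from 0.152 to 0.163 and from 0.203 to 0.313. None of these ratios overlapped between the groups, whereas that of the border sum did, with 0.0232 to 0.16 in controls and 0.049 to 0.163 in Dot1l-cKO samples. Divided by the sum of the erythroid genes, the homeostatic sum overlapped as well, with 0.0211 to 0.0604 in controls and 0.0418 to 0.087 in Dot1l-cKO samples. These ratios were chosen after the values had been seen.

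Markers of circulating blood cells, which stay in the vessels of dissected tissue, were examined as well. The sum of 10 erythroid genes had a ratio of 1.06, with 599 to 2555 CPM in the controls and 912 to 2249 CPM in the Dot1l-cKO samples, and 0 of the 10 were called at either an adjusted or an unadjusted p under 0.05. Granulocyte and monocyte markers, among them Ccr2, S100a8 and Mpo, summed to at most 3.41 CPM, and 1 of 10 had enough counts to be tested. Lymphocyte and mast cell markers summed to at most 0.95 CPM. The sum of ventral telencephalon markers had a ratio of 0.331, with 0 of 7 tested genes called and 5 lower at an unadjusted p under 0.05, against 7.3% of all genes tested. The sum of choroid plexus markers had a ratio of 0.213, with 0 of 6 genes past either threshold. Only control replicates 1 and 3 were high, reaching 548 and 647 CPM, while no other control exceeded 13.6 CPM. All Dot1l-cKO values, from 5.13 to 159 CPM, lay inside the control range, so this ratio does not describe a shift of the whole group. The part of this variation in tissue content in the result was not tested.

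A further 33 genes of microglia and macrophages, not among the 40, were examined in the same fit. They too were listed with earlier results of these data known. Of the 31 with enough counts, 8 increased and 0 decreased, against 5.67% and 1.44% of all genes tested. Their median log2 fold change was 0.57. At an unadjusted p under 0.05, 20 were higher and 1 was lower, against 13.3% and 7.3% of all genes tested. The latter, named after its value was seen, was Sall1, a transcription factor of microglia and of neural progenitors (log2 fold change -0.40, adjusted p = 0.221). The lowest p was that of Hpgds, the prostaglandin D synthase of blood cells, which increased from 2.44 ± 0.578 to 5.35 ± 0.695 CPM (log2 fold change 1.13, SE 0.18, adjusted p = 0.00331). Crybb1, a crystallin that marks early microglia, increased by a log2 fold change of 0.97 (adjusted p = 0.0119) and the chemokine Ccl3 by 0.94 (adjusted p = 0.0169). Rgs10, a regulator of G protein signalling, increased by 0.61 (adjusted p = 0.0245). Lgmn, a lysosomal protease that many cells make, increased by 0.36 (adjusted p = 0.0249), and the integrin subunit Itgb5 by 0.68 (adjusted p = 0.0266).

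Signals that the tissue sends to microglia were examined last. Of 15 such ligands, receptors and complement factors, 14 had enough counts. Of these, 1 increased and 0 decreased, against 5.67% and 1.44% of all genes tested. The gene that increased was Gas6, a bridging ligand that links dying cells to receptors on phagocytes (log2 fold change 0.62, edgeR adjusted p = 0.0497). The median of the list was 0.15. The ligands of Csf1r were Csf1, with 9.45 ± 1.56 CPM in the controls and 13.7 ± 3.65 CPM in the Dot1l-cKO samples (log2 fold change 0.53, SE 0.18, adjusted p = 0.107), and Il34, with 0.399 ± 0.184 and 0.43 ± 0.393 CPM. Cx3cl1, the ligand of Cx3cr1, had a log2 fold change of 0.22 (SE 0.17, adjusted p = 0.527). These 3 ligands were named for their receptors among the 40 genes and not for their values.

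The comparison was also made separately in the 4 samples with header number 57 and in the other 6. In the 3 control and 3 Dot1l-cKO samples outside header number 57, 17 of the 40 genes increased, against 3.41% of all genes tested, and the median log2 fold change was 1.05. In these 6 samples every Dot1l-cKO sample was above every control for 35 of the 40 genes, against 15.8% of genes tested, with Tmem119, Gpr34, Mrc1, Pf4 and Runx1 as the exceptions. In the 2 control and 2 Dot1l-cKO samples with header number 57, 0 of the 40 genes were called by edgeR, against 0.00581% of all genes tested that increased. At an unadjusted p under 0.05, 9 were higher, against 8.44% of all genes tested. Both Dot1l-cKO samples were above both controls there for 16 of the 40 genes, against 24.3% of genes tested, which were 6 homeostatic, 7 phagocytic, 3 pan-myeloid and 0 border genes. The log2 ratio of the summed level of all 40 genes was 1.08 outside header number 57 and 0.30 within it. For the homeostatic sum the ratios were 1.10 and 0.71, and for the border sum 1.31 and -1.25. Control replicate 3, with the highest meningeal sum, is 1 of the 2 controls with header number 57. The difference between the 2 sets of samples was not tested.

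The calls of 11 genes held in each of the 10 leave-one-out fits, in which 1 sample was removed. These were P2ry12, Cx3cr1, Fcrls, Siglech and Slc2a5 of the homeostatic, C1qa, C1qc, Trem2, Ctss and Mpeg1 of the phagocytic and Ly86 of the pan-myeloid class. The share of all genes tested whose calls held in each of these fits was not computed. The number of genes called fell to 11 without control replicate 1 and to 12 without control replicate 2, control replicate 4, Dot1l-cKO replicate 1 or Dot1l-cKO replicate 5. Among all genes tested, the number that increased fell as well, from 966 of 17039 to 624 of 17427 without control replicate 1. It was 643 to 728 in the other fits just named. C1qb lost its call without control replicate 1, while Csf1r, Tyrobp, Unc93b1, Aif1, Spi1, Cyth4 and Vav1 each lost theirs in 6 to 8 of these fits.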

How the data were processed

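Dorsal telencephalon RNA of 10 mouse embryos (5 control littermates, 5 Dot1l-cKO) was analysed. Per the labels and methods, the authors made stranded, rRNA-depleted paired-end libraries, trimmed reads (Trim Galore 0.2.8), mapped them to mm10 (TopHat2 2.0.9) and counted them per Ensembl gene in the reverse-stranded mode of HTSeq 0.6.0. The deposited values are whole-number counts per gene, and a second set of deposited tables holds the same counts divided by DESeq2 1.6.1 size factors, a normalised signal that is not CPM. Symbols, exon lengths and coordinates came from GENCODE M21 (42548 identifiers matched; the others held 0.268% of counts).

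The test was edgeR 4.0.16 (R 4.3.3; filterByExpr, TMM, quasi-likelihood, no covariate), with Benjamini-Hochberg adjustment over all 17039 genes tested and a threshold of 0.05. All 40 members passed the filter. The SE is the log2 fold change over the square root of F and is approximate. The members and lists were chosen with earlier results of these data known. Full values are given for the 4 called genes with the lowest p and the 2 genes with the highest level per length of each class, and at most 6 called genes of another list are named. Replicates are named as biological in the labels, and no 2 samples agreed within sampling noise (chi-square per degree of freedom at least 30.8). Same-numbered samples deviated together (correlations of 0.229, 0.349, 0.145, 0.597 and 0.131, mean 0.29), so the numbers in the titles were taken to pair the samples. The mean for different numbers was -0.0717. It follows largely from taking deviations from each group mean and adds no separate evidence. Same-numbered samples also shared their header number, which was 51, 57, 57, 90 and 154 for replicates 1 to 5. The cause of the shared deviation was not tested, and the main test did not use the pairing. Alternatives were DESeq2 1.42.0, its size factors in edgeR, 2 count filters, blocks by replicate or header number, subsets by header number, limma 3.58.1 on the normalised values (pseudocount 1), a threshold of 0.01, each sample left out, and a fit without 2 samples that was added later. The edgeR, DESeq2 and limma steps were tested on simulated data. Reads had no molecular identifiers, so depth covers counting error only. Ahsp of the erythroid list was not analysed here. Some items, among them 2 genes of another list, are not reported here.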

Additional observations from a re-analysis of the deposited data

Results flagged for a closer look

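Among 90 groups of 5 values examined (each member and class sum in each genotype), 1 held a sample far from the others. Chance flags about 1 in 20 such groups. Lyn, the Src-family kinase, had 10.3 CPM (642 counts) in Dot1l-cKO replicate 5 and 7.25 to 7.89 CPM in the other 4 Dot1l-cKO samples. On a log scale, the gap to the nearest sample was 0.762 of the range of the group (critical value 0.71). On the CPM scale the groups flagged can differ. Dot1l-cKO replicate 5 also had the highest meningeal and endothelial marker sums of its group, and their part in the value of Lyn was not tested.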

How the results depend on the processing

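Of the 40 genes, 30 kept the sign of their log2 fold change under every alternative run, and all 19 called genes are among them. The number called was 19 (all increased), and it was 23 by DESeq2, 19 with DESeq2 size factors, 16 with no low-count filter, 20 with at least 10 counts in every sample (38 genes tested), 20 with the replicate block, 19 with the header-number block, 20 by limma, 8 at an adjusted p under 0.01, 17 outside header number 57, 0 within it, 23 without the 2 samples richest in meningeal markers, and 11 to 24 with each sample left out. Among all genes tested, the number that increased was 966 of 17039 in the main fit and 1343 of 28410 by DESeq2. It was 772 of 28447 with no low-count filter, 889 of 17095 by limma and 624 to 1076 with each sample left out. With DESeq2 size factors it was 866 of 17039, and with at least 10 counts in every sample 903 of 15578. It was higher with the replicate block (1109 of 17039) and the header-number block (1221 of 17039). For the threshold of 0.01, no number over all genes is given. Beside the changes of Aif1, Spi1, Adgre1, Irf8 and Fcgr3 given above, pairing by the replicate block changed no other call. The log2 ratio of the summed level of the 40 genes was 0.77, and 0.30 within header number 57. In those 4 samples the sign turned for Tmem119 (-0.08), P2ry6 (-0.05), Fcer1g (-0.33), Cd68 (-0.19), Laptm5 (-0.29), Mrc1 (-1.45), Lyz2 (-0.55), Dock2 (-0.05) and Apbb1ip (-0.27), none of which was called in any of these fits. With each sample left out, Mrc1 ranged from -0.43 (without Dot1l-cKO replicate 5) to 0.81 (without control replicate 3), and it was -0.02 without control replicate 4. Pf4, at -0.03, was above 0 with the replicate block (0.08), the header-number block (0.07), limma (0.02), outside header number 57 (1.29), without the 2 samples richest in meningeal markers (0.32) and without control replicate 3 (0.77) or Dot1l-cKO replicates 2 (0.24), 3 (0.04) or 4 (0.19). It was -0.48 without Dot1l-cKO replicate 5 and -1.85 within header number 57. The cause of these changes was not tested. Low genes such as Cd14 and Apbb1ip had as few as 3 and 9 counts in a sample, where counting error is wide.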

Other observations

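Genes linked to the amoeboid microglia that gather along developing fibre tracts, and to lysosomes, were examined beside the 40 genes. Of 11 such genes, 9 had enough counts, and 1 increased and 0 decreased, against 5.67% and 1.44% of all genes tested. The gene that increased was Ctsd, which encodes the lysosomal protease cathepsin D and is expressed in most cells, with 135 ± 12.6 CPM in the controls and 176 ± 22.3 CPM in the Dot1l-cKO samples (log2 fold change 0.38, SE 0.10, edgeR adjusted p = 0.0382). The median log2 fold change of the list was 0.23. Of the dorsal telencephalon markers, Pax6, the transcription factor of cortical progenitors, decreased, with a log2 fold change of -0.36 (edgeR adjusted p = 0.0294), and the other 9 were not called. Among all genes tested, 1.44% decreased.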
